A study of Mus musculus with 2 samples.

Results

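The genes described are 9 cell adhesion genes of the synapse in 3 families: the neurexins Nrxn2 and Nrxn3, the neuroligins Nlgn1, Nlgn2 and Nlgn3, and the leucine-rich repeat transmembrane genes Lrrtm1, Lrrtm2, Lrrtm3 and Lrrtm4. They were chosen by name, not by any measured value, and are 9 of the 55536 annotated genes. Each was found by the gene symbol in the transcript names and joined by gene identifier to the gene tables. The tissue was left cerebral cortex from B6CASTF1/J females aged 18 to 20 months, an F1 hybrid strain of C57BL/6J and CAST/EiJ, and its total RNA was sequenced. The labels give 1 group of 2 libraries, biological replicates 1 and 2, each made from 300 ng of RNA, with no treatment or contrast. The libraries have separate biosamples but 1 donor entry, so the spread between them may be technical. Bulk tissue mixes all cell types, so fewer cells of a type and less RNA per cell cannot be told apart.

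Neurexins sit mainly on the presynaptic membrane and reach across the cleft to many partners. Their genes have separate start sites for a long form, called alpha, and a short form, called beta, which share the membrane-spanning end but differ in the outer part. Neuroligins and LRRTM proteins are postsynaptic partners of neurexins. Neuroligin 1 is known mainly from excitatory synapses, neuroligin 2 from inhibitory synapses and neuroligin 3 from both, and LRRTM proteins are known mainly from excitatory synapses. Which partner a neurexin binds depends on short alternative exons, the best known being the insert at splice site 4. Neuroligins carry their own inserts at sites called A and B.

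The Nrxn3 insert at splice site 4 is printed because the isoform results of this gene turn on it. It is a coding exon of 90 bases on the plus strand of mm10 at chr12:90199147-90199236, in lower case with no part singled out.
Nrxn3 90-base exon: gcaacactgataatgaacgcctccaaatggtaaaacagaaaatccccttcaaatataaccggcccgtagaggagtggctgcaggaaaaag

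The neuroligin inserts at site A are printed to show which of them resemble each other. They lie at chr3:25920178-25920237 on the minus strand (Nlgn1), chr11:69830563-69830613 on the minus strand (Nlgn2), and chrX:101303072-101303131 and chrX:101307075-101307134 on the plus strand (Nlgn3 exons a and b), all coding exons in mm10. Exon b of Nlgn3 was identical to the Nlgn1 exon at 43 of 60 bases (71.7%). Exon a of Nlgn3 matched the Nlgn1 exon at 16 of 60 bases (26.7%) and its own neighbour, exon b, at 19 of 60 (31.7%). The Nlgn2 exon is 51 bases long and was not aligned with the others. The site B insert of Nlgn1, a 27-base extension of a coding exon at chr3:25439865-25439891 on the minus strand, is the last sequence. All are in lower case, with no part singled out, and read 5′ to 3′ on the strand of the gene.
Nlgn1 60-base exon: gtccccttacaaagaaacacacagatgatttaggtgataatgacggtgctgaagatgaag
Nlgn3 60-base exon b: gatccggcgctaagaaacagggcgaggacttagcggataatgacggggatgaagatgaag
Nlgn3 60-base exon a: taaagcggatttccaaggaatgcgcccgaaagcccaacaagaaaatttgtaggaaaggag
Nlgn2 51-base exon: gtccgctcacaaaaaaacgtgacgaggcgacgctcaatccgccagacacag
Nlgn1 exon extension: gtaaccgttggagcaattcaaccaaag

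All 9 genes were expressed at 1 TPM or more in both libraries (TPM is a read count divided by transcript length and scaled to the same total in every library). Of all annotated genes 26.7% passed this threshold, and of 22015 nuclear protein-coding genes 58.3% did. Among the 12844 protein-coding genes that passed, whose median was 15.8 TPM, the members lay from percentile 61.2 (Lrrtm2) to percentile 98.5 (Nrxn2). Their own median was 45.8 TPM. Levels below are from the gene tables and are followed by their mean ± SD over both libraries (n = 2). The genes were covered by 1105 counts (Lrrtm1, replicate 2) to 17743 counts (Nrxn2, replicate 1), out of 32357983 counts on genes in replicate 1 and 24798683 in replicate 2.

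The neurexins were the most abundant family of the 3. Nrxn2 had 242 TPM in replicate 1 and 259 in replicate 2 (251 ± 11.7). That placed it at rank 195 of the expressed protein-coding genes. Nrxn3 stood at 102 and 115 TPM (108.5 ± 9.18). Both values of Nrxn2 lay above both of Nrxn3, and the means differed 2.31-fold. Summed TPM of the 2 genes was 359 ± 20.9, of which Nrxn2 held 69.8%.

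Nlgn2, the neuroligin of inhibitory synapses, was the highest of its family, at 95.5 and 113.9 TPM (105 ± 13.0). Its range overlapped that of Nrxn3, so the order of these genes is not resolved. Nlgn3 followed at 61.4 and 64.0 TPM (62.7 ± 1.78), and Nlgn1 at 44.2 and 47.4 TPM (45.8 ± 2.26). The ranges of the 3 neuroligins did not overlap. Their sum was 213 ± 17.0 TPM, with 49.0% ± 2.19 from Nlgn2, and the highest mean was 2.29 times the lowest.

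The LRRTM genes lay close together and below the other families. Lrrtm3 was at 26.6 and 29.7 TPM (28.2 ± 2.16), Lrrtm4 at 24.5 and 30.0 TPM (27.3 ± 3.86) and Lrrtm1 at 27.4 and 26.1 TPM (26.7 ± 0.898). These ranges overlapped one another. Lrrtm2 was lowest at 21.1 and 23.4 TPM (22.3 ± 1.63), below both libraries of every other member. The family summed to 104.4 ± 6.76 TPM. In the gene tables its highest and lowest members differed only 1.26-fold, against 2.31-fold and 2.29-fold in the other families. The LRRTM span was wider when measured in the other ways given below.

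**Figure D1:**
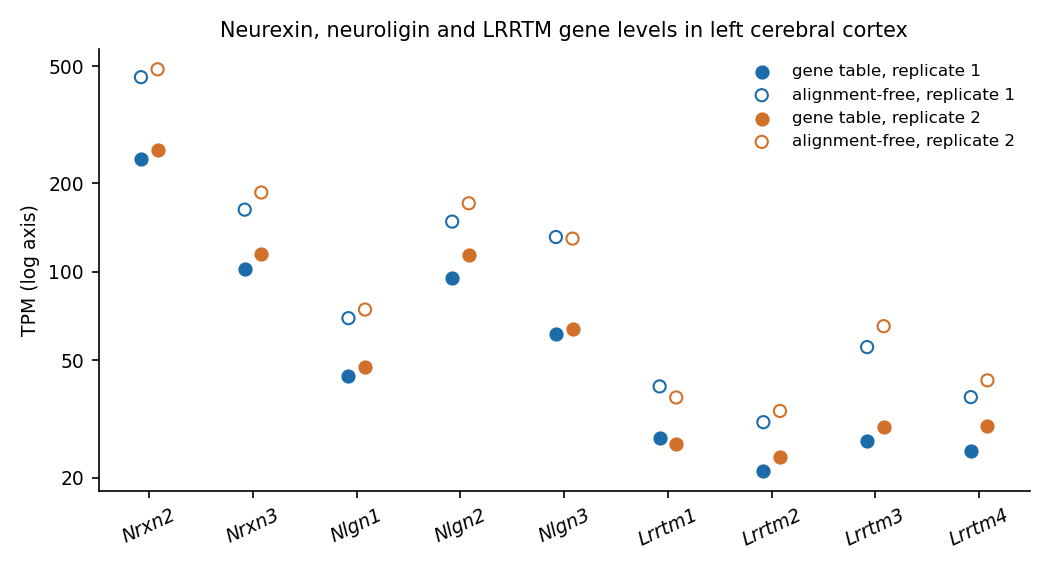
Level of each member in TPM (log axis) in replicate 1 (blue) and replicate 2 (orange), from the gene tables (filled) and from the alignment-free tables summed over transcripts (open). Nrxn2 was highest and Lrrtm2 lowest in both kinds of table, and every open point lies above its filled partner.

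A second set of deposited tables, made without alignment, gave TPM per transcript. Summed to genes it gave higher values for every member, between 1.45 and 2.15 times the gene table, as it did for protein-coding genes in general (median 1.62). The order of the means was the same. In these tables Nrxn3 and Nlgn2 still overlapped, at 163 and 186 against 148 and 171 TPM, as did Lrrtm4 and Lrrtm1. Lrrtm3, at 55.5 and 65.4 TPM, no longer overlapped its relatives. The LRRTM means ran from 32.3 TPM (Lrrtm2) to 60.5 TPM (Lrrtm3), a wider span than in the gene tables. The ratio was highest for Lrrtm3 and next for Nlgn3, where transcripts without a coding sequence took a larger share: the coding share of Lrrtm3 was 48.1% of its TPM in the alignment-based tables and 33.4% in the alignment-free ones, and that of Nlgn3 97.8% and 54.8%.

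Transcripts without a coding sequence changed the picture for some members. Lrrtm1 and Lrrtm4 were measured wholly through coding transcripts (100% in both kinds of table), and Nlgn2 (94.1%) and Lrrtm2 (92.8%) nearly so. Coding here means that the annotation gives a coding sequence. For Lrrtm1 this takes in Lrrtm1-201 (16.5% and 18.0% of its TPM), which the annotation classes as a target of nonsense-mediated decay. For Lrrtm4 it takes in Lrrtm4-204 (1.81 and 4.71 TPM) and Lrrtm4-207 (1.63 and 3.53 TPM), whose annotated coding sequences are incomplete. Both values are from the alignment-based tables, where Lrrtm4 would lie below Lrrtm1 in both libraries without these fragments. Nrxn2, Nrxn3 and Nlgn1 had coding shares of 72.8%, 73.0% and 74.9% in the alignment-based tables. Counting coding transcripts alone, the means became 182 TPM for Nrxn2, 98.3 for Nlgn2, 78.9 for Nrxn3, 61.3 for Nlgn3, 34.2 for Nlgn1, 27.3 for Lrrtm4, 26.7 for Lrrtm1, 20.7 for Lrrtm2 and 13.5 for Lrrtm3. Nlgn2 then stood above Nrxn3, and Lrrtm3 moved from the top of its family to the bottom. The LRRTM genes also spread more widely than in the gene tables.

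Transcripts were taken as long (alpha) where the annotated coding sequence had 3000 bases or more and as short from 600 bases to under 3000, which takes in the beta form and 1 fragment described below. The neurexins divided in opposite ways. Long transcripts of Nrxn2 summed to 66.0 TPM in replicate 1 and 61.5 in replicate 2, and short ones to 116 and 121 TPM, so the long share was 36.2% and 33.8% (35.0% ± 1.69). Long transcripts of Nrxn3 summed to 56.9 and 58.4 TPM, and short ones to 22.4 and 20.2 TPM, a long share of 71.8% and 74.3% (73.0% ± 1.79). Long Nrxn2 lay slightly above long Nrxn3 in both libraries, while short Nrxn2 lay far above short Nrxn3. The alignment-free tables gave 37.1% for Nrxn2 and 72.8% for Nrxn3. The short Nrxn2 sum includes Nrxn2-209 (8.46 and 8.67 TPM; 19.7 and 37.9 TPM alignment-free), an incomplete transcript of 648 bases with 0 bases outside the long transcripts. Counted with the long form, an alternative added after the data were seen, it brought the long share of Nrxn2 to 39.7% ± 1.61, and to 47.4% ± 0.684 in the alignment-free tables. In reads rather than molecules the long share was higher, 48.7% and 87.1%, since a long transcript yields more reads.

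**Figure D2:**
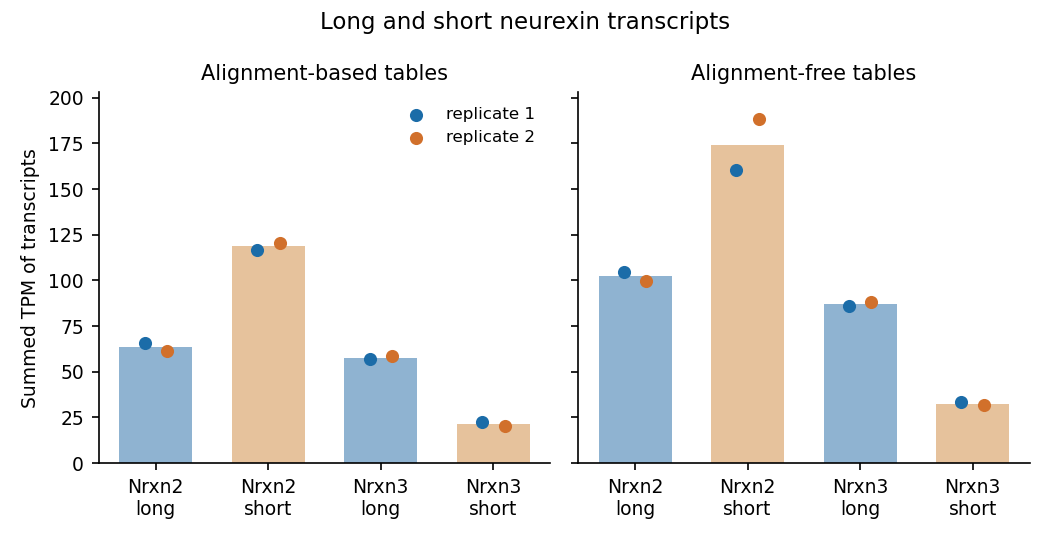
Summed TPM of long and short neurexin transcripts, with the fragment Nrxn2-209 among the short ones (bars, mean of 2 libraries; points, replicate 1 in blue and replicate 2 in orange) in the alignment-based and alignment-free tables. The short form exceeded the long form for Nrxn2 and fell below it for Nrxn3 in both libraries and both kinds of table.

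Among single transcripts, the short Nrxn2-202 led its gene with 108 and 112 TPM (43.8% ± 0.972 of Nrxn2), and the long Nrxn2-204 and Nrxn2-201 followed with 36.8 and 37.3 TPM and with 25.8 and 21.4 TPM. Of the 3503 bases of Nrxn2-202, 704 were in no long transcript. Nrxn2-213, a non-coding transcript of 576 bases, reached 41.7 and 39.4 TPM from only 448 and 317 expected counts, because TPM divides by length. The long Nrxn3-205 led Nrxn3 with 37.8 and 39.6 TPM, and the short Nrxn3-203 had 13.4 and 16.6 TPM. The other short transcript, Nrxn3-202, had 8.98 and 3.56 TPM. Both short Nrxn3 transcripts held 1158 bases found in no long transcript. Part of the long Nrxn3 sum came from Nrxn3-208 (9.08 and 8.97 TPM) and Nrxn3-213 (6.04 and 7.52 TPM), which the annotation classes as targets of nonsense-mediated decay. Without that class the long share of Nrxn3 was 66.3%.

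The start window of the short Nrxn3 form is printed because this form has a start site of its own. It comes from RefSeq (GRCm38.p6), covers 250 bases before to 50 bases after the start at chr12:89812233-89812532, lies on the plus strand and is in lower case with no part singled out. It holds the annotated starts of Nrxn3-202 and Nrxn3-203 (22.4 and 20.2 TPM together). The window had 16 CG dinucleotides and 60.7% G or C. Over 32851 promoter windows of the same length the medians were 7 CG and 52.7%, and 67.0% had fewer CG. The letters TATAAA were on neither strand of it, and on at least 1 strand of 13.6% of all windows. No window is shown for the long form, because the first annotated base of Nrxn3-205 is also the border of an inner exon in Nrxn3-208, which starts further upstream. Entries for 6 of the 9 members were used.
Nrxn3 short-form start: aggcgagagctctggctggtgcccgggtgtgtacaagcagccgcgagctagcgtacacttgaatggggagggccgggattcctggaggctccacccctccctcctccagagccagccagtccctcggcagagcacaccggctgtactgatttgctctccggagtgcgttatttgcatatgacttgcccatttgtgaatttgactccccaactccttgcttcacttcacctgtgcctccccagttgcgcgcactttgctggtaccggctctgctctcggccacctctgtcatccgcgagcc

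From the annotation, 12 alternative coding exons of the neurexins and neuroligins are described, each held by some coding transcripts and joined over by others with the same neighbouring exon borders. Inclusion is the TPM of the transcripts that hold an exon as a percent of the TPM of both kinds. It therefore rests on reads assigned to whole transcripts, not on reads over the exon. All 12 lengths were multiples of 3, so each keeps the reading frame.

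Most coding Nrxn3 transcripts, by TPM, held the splice site 4 exon shown above. Inclusion was 75.5% and 69.3% (72.4% ± 4.40), with 76.6% in the alignment-free tables. The long form held it at a higher share than the short form in both libraries and both kinds of table. Long Nrxn3 held it at 88.3% ± 1.61 (84.5% alignment-free). Short Nrxn3 gave 40.1% and 17.6% in the 2 libraries, and 63.1% and 47.7% in the alignment-free tables, so its value is poorly fixed. The comparison rests on few transcripts: Nrxn3-202 and Nrxn3-203 are the only short ones, and Nrxn3-213 is the only long one without the exon. Nrxn3-213 is classed as a target of nonsense-mediated decay. All annotated long transcripts of the protein-coding class hold the exon, so within that class skipping in the long form cannot be seen.

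Other neurexin exons ranged from mostly skipped to mostly included. In Nrxn2 a 30-base exon (chr19:6448255-6448284) was at 75.6% ± 2.75, with only the fragment Nrxn2-209 scored as lacking it. Nrxn2-204 (36.8 and 37.3 TPM) is scored on neither side for this exon, so its TPM is left out of that percent. A 24-base exon (chr19:6463824-6463847) was at 53.6% ± 2.59 and its 45-base extended form (chr19:6463824-6463868) at 8.85% ± 0.176. Each of these was set against the skipping transcripts alone, which include Nrxn2-209, so these percents do not share a base. The 24-base form had 36.75 and 37.3 TPM, the extended form 3.38 and 2.87 TPM, and the skipping transcripts 34.3 and 30.04 TPM. The 72-base exon (chr19:6450528-6450599) and the 27-base exon (chr19:6488784-6488810) were scored as held by the same transcripts and stood at 41.8% ± 3.47. Nrxn2-209 is scored on neither side for them. Nrxn2-204 is the only transcript scored as lacking them. In Nrxn3, 27-base exon a (chr12:89354453-89354479) was at 84.3% ± 0.413 and 27-base exon b (chr12:89517906-89517932) at 17.3% ± 0.663.

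The neuroligin inserts differed between genes. The Nlgn1 exon was included at 43.0% and 51.7% (47.3% ± 6.15; 48.3% alignment-free). The site B extension of Nlgn1 is held by exactly the transcripts that hold this exon, so both inserts have the same value and cannot be told apart here. The Nlgn2 exon was at 95.2% and 94.4% (94.8% ± 0.616; 88.0% alignment-free), but only the fragment Nlgn2-203 lacks it. In Nlgn3, exon a was rare, at 5.67% and 14.3% (9.98% ± 6.10; 8.83% alignment-free), while exon b, the one like the Nlgn1 exon, was at 49.2% and 47.5% (48.3% ± 1.24; 60.4% alignment-free). Exon b thus lay within the range of the Nlgn1 exon it resembles in the alignment-based tables and above it in the alignment-free ones. Exon a of Nlgn3 rests on 1 transcript, Nlgn3-206, and the skipping of exon b on 1, Nlgn3-203, whose annotated coding sequence is incomplete. Nlgn3-203 (29.9 and 30.2 TPM) is scored on neither side for exon a, so its TPM is left out of that percent. Nlgn3-206 is scored on neither side for exon b. Of all Nlgn3 TPM, Nlgn3-206 held 2.83% and 7.11% (0.968% and 5.24% alignment-free).

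**Figure D3:**
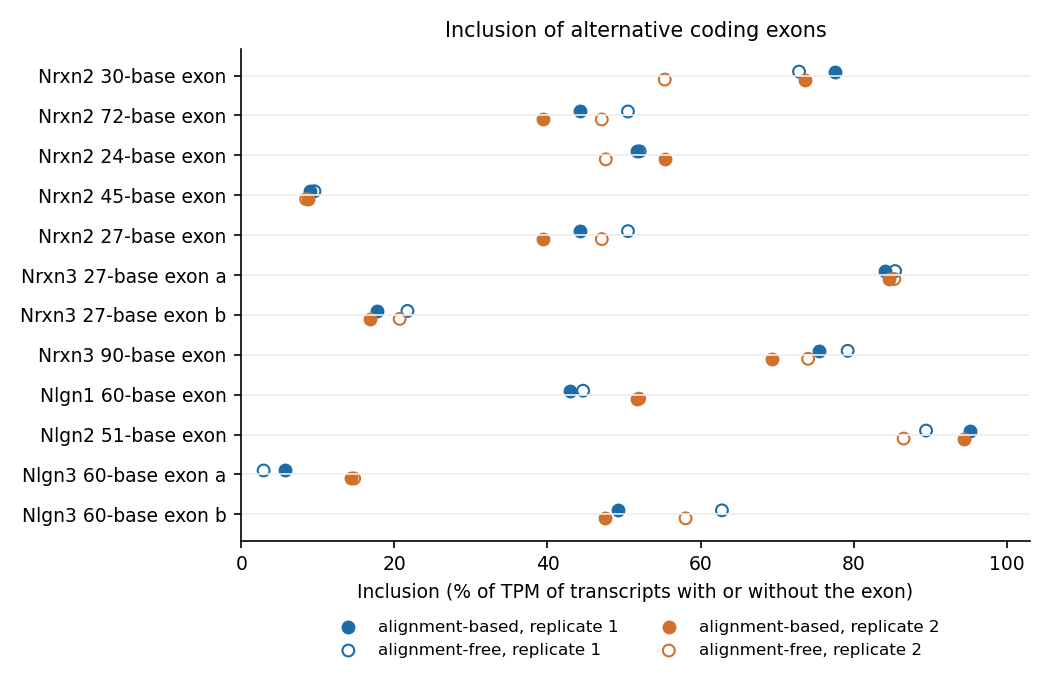
Inclusion in percent of 12 alternative coding exons in replicate 1 (blue) and replicate 2 (orange), from alignment-based (filled) and alignment-free (open) transcript tables. The 90-base exon of Nrxn3 lies between 69.3% and 79.2%, the Nlgn2 exon at 86.5% or above, and Nlgn3 exon a below 15%.

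Across the 9 genes 65 transcripts were annotated, 42 of them coding. The same transcript led its gene in both libraries and both kinds of table for 7 of 9 genes. Nlgn1 was led by Nlgn1-203, which lacks the site A exon (17.8 and 16.3 TPM), ahead of Nlgn1-201 (8.91 and 11.3 TPM) and Nlgn1-205 (5.98 and 6.19 TPM), which hold it. Nlgn2 was led by Nlgn2-202 (71.4 and 76.1 TPM), with Nlgn2-201 at 16.7 and 22.2 TPM. For Nlgn3 the alignment-based tables put the incomplete Nlgn3-203 (29.9 and 30.2 TPM) just above Nlgn3-201 (28.95 and 27.3 TPM), although Nlgn3-201, at 8465 bases, drew 5461 and 3848 expected counts against 1181 and 893. The alignment-free tables put Nlgn3-201 first (42.3 and 39.3 TPM) and gave the non-coding Nlgn3-205 38.9 and 38.4 TPM, against 0.62 and 1.15 in the alignment-based tables.

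The LRRTM genes had from 3 (Lrrtm2) to 8 (Lrrtm4) annotated transcripts. Lrrtm1-202 (18.2 and 16.2 TPM) and Lrrtm2-201 (17.0 and 18.1 TPM) led their genes. Lrrtm3 was divided between the coding Lrrtm3-201 (13.4 and 13.6 TPM) and the retained-intron Lrrtm3-204 (10.2 and 12.3 TPM), and a short non-coding transcript, Lrrtm3-202, had 1.78 and 3.22 TPM in the alignment-based tables but 18.4 and 22.7 TPM in the alignment-free ones. Lrrtm4 was led by Lrrtm4-208 (11.2 and 11.4 TPM). Its complete coding transcripts end either in a last coding exon beyond an intron of 786 kb or before it, 3 of each kind. The distant end held 65.9% and 57.7% of their TPM (61.8% ± 5.83; 60.5% ± 8.50 alignment-free), a comparison chosen after the values were seen.

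The libraries differed little for the members. From scaled counts, the log2 ratio of replicate 2 to replicate 1 ran from -0.11 (Lrrtm1) to 0.13 (Lrrtm4), with a median of 0.05 against 0.00025 over 18246 tested genes. None of the 9 differed more than 2-fold (background 5.46% of tested genes, 4.46% higher and 1.01% lower), and 7 were higher in replicate 2, as were 50.03% of all tested genes. With 1 library on each side there is no replicate check and no p-value. The 95% interval of counting error covered 0 for 7 genes and lay above it for Nlgn2 (0.12, from 0.08 to 0.16) and Lrrtm4 (0.13, from 0.02 to 0.24). That interval holds no variation between animals or preparations, and over all genes the libraries differed by more than counting error.

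**Figure D4:**
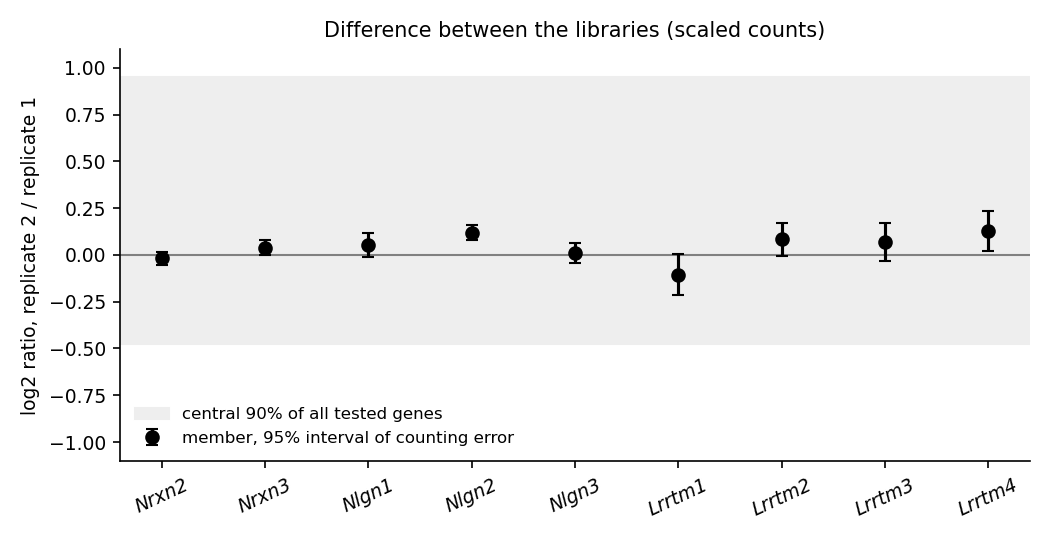
log2 ratio of replicate 2 to replicate 1 for each member (points, with the 95% interval of counting error) against the range from the 5th to the 95th percentile of all tested genes (grey, -0.48 to 0.95). All 9 points lie between -0.11 and 0.13.

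One class of transcripts of these genes was shifted between the libraries, noticed after the values were seen. All 8 retained-intron transcripts of the members with a mean of 1 TPM or more were higher in replicate 2, with a median log2 ratio of 0.81 on log2(TPM + 0.1). Most of the class lay the same way: of 9374 such transcripts of all genes 81% were higher in replicate 2, with a median of 0.53. Nrxn3-204 had 9.24 and 14.9 TPM, Nlgn1-204 had 9.54 and 13.6 TPM and Lrrtm3-204 had 10.2 and 12.3 TPM. Without alignment, 7 of 7 were higher (80.3% of 12045 over all genes). Protein-coding transcripts of the members were higher in replicate 2 for 20 of 29 (48.7% over all genes), and for 21 of 31 in the alignment-free tables (52.8%). Those of the class of other processed transcripts were higher for 6 of 9 (66.4%), and for 6 of 11 without alignment (67.2%). Annotated entries inside introns pointed the same way: 10 same-strand entries of unclassified or intronic type in Nrxn3 (2), Nlgn1 (1) and Lrrtm4 (7), with no exon base shared and a mean of 1 TPM or more, were all higher in replicate 2, as were 96.7% of 705 entries of these types in the gene tables. Gm48692 in Nrxn3, for example, had 2.45 and 4.63 TPM. Others, such as Gm20371 in Lrrtm4 (0.62 and 1.68 TPM), reached a mean of 1 TPM only through replicate 2. For those entries the direction is not independent of the filter. The gene totals of Nrxn2, Nrxn3, Nlgn1, Nlgn2, Lrrtm2 and Lrrtm3 include their retained-intron transcripts. That of Nlgn2, Nlgn2-204, had 2.99 and 9.80 TPM from 17.2 and 42.3 expected counts, and 0 TPM in both libraries without alignment. The part of intron reads in the members' small differences was not tested.

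**Figure D5:**
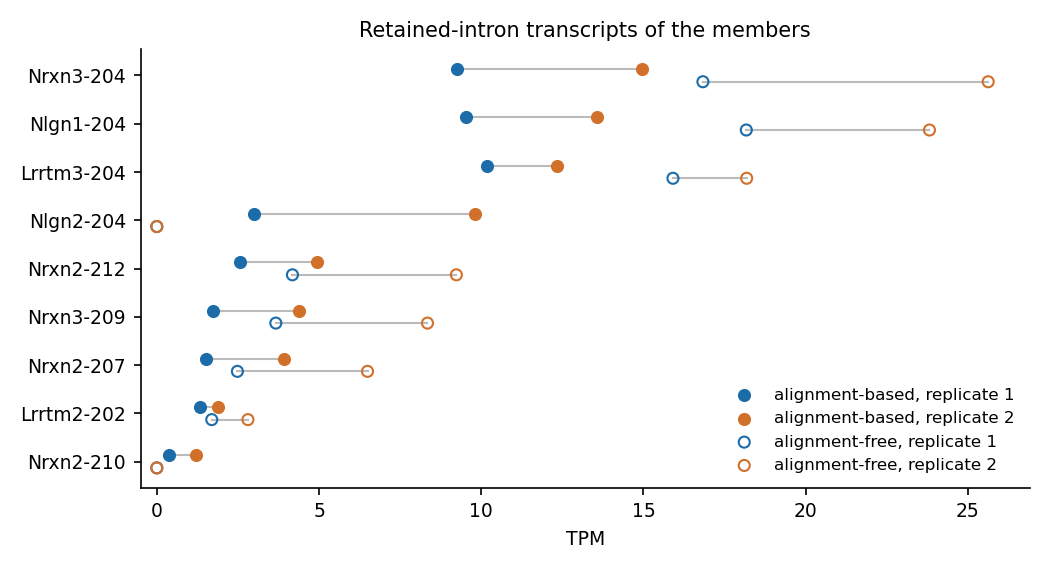
TPM of the 9 annotated retained-intron transcripts of the members in replicate 1 (blue) and replicate 2 (orange), alignment-based (filled) and alignment-free (open), with a line joining the libraries. Wherever a transcript was above 0 in a table, its replicate 2 point lies to the right.

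Several members lie inside or beside other genes, and whether counting used the strand is not given in the sources used here. Lrrtm1 (chromosome 6, bases 77242689 to 77257791, plus strand), Lrrtm2 (chromosome 18, bases 35209003 to 35215024, minus strand) and Lrrtm3 (chromosome 10, bases 63928472 to 64090277, minus strand) each lie within an alpha-catenin gene on the opposite strand. These hosts, which encode adaptors between cadherins and the cytoskeleton, stood at 44.3 and 47.5 TPM (Ctnna2), 22.9 and 22.4 TPM (Ctnna1) and 0.75 and 0.76 TPM (Ctnna3). Exons were shared over 95 bases for Lrrtm2 and over 0 bases for Lrrtm1 and Lrrtm3. Nlgn3 (chromosome X, bases 101299168 to 101325963, plus strand) shares 3823 exon bases with the non-coding Gm21986 on its own strand, which took 125.97 and 100.51 expected counts, and it was the only member with fractional counts (6985.2 and 5408.57). Nlgn1 (chromosome 3, bases 25426215 to 26332460, minus strand) shares 1229 exon bases with the antisense A830092H15Rik (75 and 55 counts). Nlgn2 (chromosome 11, bases 69823122 to 69837784, minus strand) overlaps no other annotated gene. Nrxn2 (chromosome 19, bases 6418731 to 6544169), Nrxn3 (chromosome 12, bases 88722876 to 90334935) and Lrrtm4 (chromosome 6, bases 80018877 to 80810143), all on the plus strand, overlap the exons of opposite-strand genes that had at most 20 counts.

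The partners of these genes were present as well. All 14 listed neurexin ligands outside the members reached 1 TPM in both libraries, and their median was 19.0 ± 0.00707 TPM. Highest were Clstn3, a calsyntenin, at 153 and 162 TPM, and the carbonic anhydrase-related Car11 (104.6 ± 15.2 TPM) and Car10 (63.6 ± 3.05 TPM), which bind neurexins. All 12 scaffolds and inhibitors of neuroligins were expressed, with a median of 80.2 ± 4.61 TPM, led by the postsynaptic density genes Dlg4 (312 and 342 TPM), Shank1 (251 and 284 TPM) and Dlgap1 (195 and 215 TPM). The 6 listed genes of adaptors that bind neurexins inside the cell, directly or through another adaptor, had a median of 51.7 ± 0.322 TPM, with Apba2 (104 ± 1.02 TPM), Lin7b (70.5 and 65.6 TPM) and Apba1 (53.2 and 55.7 TPM) highest. Of the 28 other synaptic adhesion genes, all expressed, with a median of 46.3 ± 0.732 TPM, Clstn1 (586 ± 0.219 TPM), Ptprs (254 and 308 TPM) and Cadm3 (172 and 193 TPM) led. The 3 KHDRBS genes encode RNA-binding proteins known to favour skipping of the splice site 4 exon: Khdrbs3 stood at 151 and 137 TPM, Khdrbs1 at 42.0 and 41.3 TPM and Khdrbs2 at 4.40 and 6.56 TPM. In these 5 lists no gene differed more than 2-fold between the libraries, and the median log2 ratio ran from -0.12 to 0.07.

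The labelled tissue was checked against marker genes. All 4 neuronal markers (median 347 TPM), all 4 excitatory (44.3 TPM) and all 3 inhibitory ones (45.1 TPM) were expressed. So were all listed markers of astrocytes, oligodendrocytes, their precursors, microglia and endothelium, at medians from 9.56 to 82.5 TPM. Of 5 markers of other brain regions, 4 were at 1 TPM or more in both libraries: Slc17a6 (14.6 and 13.0 TPM), Ttr (6.69 and 2.84 TPM), Prox1 (3.61 and 2.85 TPM) and Tcf7l2 (3.18 and 3.47 TPM). The remaining one, Gabra6 of cerebellar granule cells, had 0 counts.

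Many marker lists were lower in replicate 2, against 50.03% of all tested genes being higher there. None was higher among 4 excitatory markers (median log2 ratio -0.11), 3 inhibitory (-0.30), 4 oligodendrocyte (-0.33), 3 microglial (-0.33), 3 endothelial (-0.35) and the 4 tested markers of other regions (-0.39, with Ttr over 2-fold lower at -1.25). Of 4 astrocyte markers 1 was higher (median -0.10, with Gfap at -0.90), of 4 neuronal markers 2 (-0.00087), and of the precursor markers 2 of 2 (0.14). Of the members 7 of 9 were higher, with a median of 0.05. The part of cell composition in the members' values was not tested.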

How the data were processed

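Total RNA-seq of 2 libraries of 1 group was used. Per the file headers, each library has alignment-based gene and transcript tables, from which the deposited expected counts and TPM were taken, and an alignment-free transcript table with deposited estimated counts and TPM. The references are mm10 and GENCODE M21, per the text deposited with the tables. Neither aligner nor quantifier is named in the sources used here. Expected counts are not normalized and share out reads that fit several genes. TPM was scaled by the authors to a fixed total per library, and short transcripts weigh more in it per read. How reads of the CAST/EiJ allele were placed on mm10 was not analysed here.

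After rounding of the expected counts, and a filter at a mean of 10 counts, log2 CPM ratios were taken with edgeR 4.0.16 (TMM, prior count 2) or, as an alternative, DESeq2 1.42.0 size factors. Tables were handled in Python 3.11.15 with pandas 2.3.3. Counting intervals are 95% Poisson intervals and cover counting error only. The depth on genes was 32357983 and 24798683 counts, with spike-ins left out. The ratio step was tested on simulated data. No p-value was computed, since 1 group of 2 libraries allows no comparison of groups.

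Members and gene lists were chosen with earlier results of these data known. Named are all members, the 3 genes of highest mean TPM in each partner list and transcripts that lead a gene, with others where a sentence uses them. Not every transcript that holds 10% or more of its gene's TPM is named, so an unnamed one need not be minor. Alternatives covered thresholds, scaling, table, unit and single libraries. Some exon results are not reported here. The exons were read from the GENCODE M21 transcripts, and the start windows from RefSeq.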

Additional observations from a re-analysis of the deposited data

How the results depend on the processing

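The 9 members stayed at 1 TPM or more, and 0 of 9 differed more than 2-fold, under every threshold, scaling and table tried. Summed TPM moved with the table and scale: to 648, 362 and 172 (neurexins, neuroligins, LRRTM genes) in the alignment-free tables, to 814, 483 and 237 when rescaled to nuclear protein-coding genes, and to 261, 194 and 88.1 over coding transcripts alone, an alternative added after the data were seen; the order of the families was the same in each. The long share of Nrxn2 was 37.1% alignment-free, 48.7% in counts 36.7% over complete coding sequences, and 39.7% with the fragment Nrxn2-209 counted as long (47.4% alignment-free), and that of Nrxn3 87.1% in counts and 66.3% over the protein-coding class (the choices on complete sequences, the fragment and that class were also added later). Alignment-free inclusion was 64.1% for the Nrxn2 30-base exon, 48.8% for its 72-base and 27-base exons, 49.8% for its 24-base exon, 85.4% and 21.2% for Nrxn3 27-base exons a and b, 88.0% for the Nlgn2 exon and 60.4% for Nlgn3 exon b. The causes were not tested. A limit of 2000 coding bases for long transcripts could change nothing, since no annotated neurexin transcript has a coding sequence between 2000 and 3000 bases. The small log2 ratios of Nrxn2, Nrxn3, Nlgn1, Nlgn3 and Lrrtm3 changed sign under 1 or 2 settings; those of Nlgn2, Lrrtm1, Lrrtm2 and Lrrtm4 kept theirs. Single libraries give the values printed for each replicate. No paired analysis was possible because the samples form 1 group. Forms with no annotated transcript, and exons carried together by the same transcripts, cannot be resolved by these tables.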
